A study of Xenopus tropicalis with 24 samples.

Results

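The regions described here are the Smad2/3 sites called in Xenopus tropicalis embryos at stage 8 and at stage 9 by chromatin immunoprecipitation and sequencing (ChIP-seq), which maps where a protein sits on DNA. Every peak of both deposited lists was kept, which gave 207 sites at stage 8 and 865 at stage 9, or 1072 of the 169312 peaks in the 17 lists of the series. The embryos were wild type, made by in vitro fertilization, staged by the Nieuwkoop and Faber criteria (NF) and left untreated in both groups. Chromatin came from whole embryos in pools of 250, precipitated with the Smad2/3 antibody FL-425, and RNA of the same stages was measured by 3′ sequencing of poly(A) RNA (3seq). Each stage has 1 Smad2/3 ChIP library and 1 RNA library of untreated embryos in use. A stage, a pool of embryos and a library thus cannot be told apart, and no test across libraries was possible. An RNA library and the H3K27ac and H3K4me1 lists of Nodal-inhibited stage 9 embryos served only for comparison with other libraries and lists. The intervals given are 95% Clopper-Pearson intervals for shares and order-statistic intervals for medians, and cover counting error over peaks only, although peaks of 1 library are not replicates.

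Smad2 and Smad3 carry the signal of Nodal and other activin-type ligands of the TGF-β family: the activated receptor phosphorylates them, they join Smad4, enter the nucleus and bind DNA together with partners such as Foxh1. In the frog embryo this pathway specifies mesendoderm, and its zygotic targets are switched on around the midblastula transition, near the stages compared here. The DNA-binding domain of Smad3 is known to contact the short motif AGAC, which reads GTCT on the other strand.

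The RNA libraries were read against marker lists of the labelled stages. Of 33 maternal and germ plasm genes, 18 could be compared by the rule given with the gene comparison below. Of these, 0 were higher and 4 lower at stage 9, with a median log2 of stage 9 over stage 8 of -0.54. Of all 4560 genes compared, 7.35% were higher and 29.0% lower, with a median of -0.45. The maternal median thus lay near that of all genes. The 4 lower ones were cpeb1, kif11, wnt11 and zar1. The oocyte linker histone h1foo had 20395 and 30437 tags, which after scaling to the library totals is a log2 of only 0.16. Of 21 genes of later differentiated cells, only alb has an RNA label that names it alone, with 103 and 108 tags. The others have no such label and could not be compared, which says nothing of their level. Of 20 early zygotic genes 5 could be compared, with 1 higher, 1 lower and a median log2 of -0.75: gs17 had 1 tag at stage 8 and 103 at stage 9, and sox3, which is also a maternal transcript, 8979 and 4782.

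The 2 lists were almost disjoint. By an overlap of 1 bp they shared 1 site, which is 0.483% of the stage 8 sites (0.0122 to 2.66%) and 0.116% of the stage 9 sites (0.00293 to 0.642%). The shared site lay on xenTro2 scaffold 595, at bases 195070 to 195439 in the stage 8 list and 195137 to 195519 in the stage 9 list, in intergenic DNA more than 350 kb from the nearest annotated transcription start site (TSS), that of sox18, at 352576 and 352502 bp. It ranked 187 of 207 by score at stage 8 and 158 of 865 at stage 9. Its G+C content was 59.1% and 58.7% in the 2 lists, close to the stage 9 sites and far from the stage 8 sites as described below. Within 1 kb of each other lay 4 sites of each list, and 60 scaffolds held sites of both stages, of 170 with a stage 8 site and 611 with a stage 9 site.

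The sites of the 2 stages carried different sequence. At stage 9 the centre of 596 of 865 peaks (68.9%, 65.7 to 72.0%) lay in a repeat by the deposited HOMER annotation, against 38 of 207 (18.4%, 13.3 to 24.3%) at stage 8. A further 54 stage 9 peaks (6.24%) and 4 stage 8 peaks (1.93%) were centred in CpG islands. The stage 9 repeats were of few kinds. Chap4 repeats held 223 sites (25.8%, 22.9 to 28.8%), of which 96 were labelled Chap4b_Xt and 78 Chap4a_Xt, both annotated as DNA transposons of the hAT-Charlie superfamily, and 49 the satellite Chap4sat_X. Simple tandem repeats held 342 sites (39.5%, 36.3 to 42.9%), and 3 tandem units with their reverse complements made up 275 of those 342. The 3 units and Chap4 together accounted for 498 of the 865 stage 9 sites (57.6%) and for 1 of the 207 stage 8 sites.

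The leading tandem units are shown as 3 copies read 5′ to 3′, because each defines a group of sites that share their sequence. The letters AGAC or GTCT are in capitals where they occur across the copies. The CAGA unit, which labelled only 4 sites, is not a leading unit and is shown as a further unit that holds these letters. The CCCTA unit and its reverse complement TAGGG labelled 131 sites, the CAGAGA unit and its reverse complement TCTCTG 113 sites, and the CAGGG unit with CCCTG 31 sites.
CCCTA unit: ccctaccctacccta
CAGAGA unit: cagAGACagAGACagaga
TCTCTG unit: tctctGTCTctGTCTctg
CAGGG unit: cagggcagggcaggg
CAGA unit: cAGACAGACaga
The motif searched was AGAC on either strand, in tandem copies of the annotated unit. It occurred in the unit of 119 of the 342 stage 9 simple-repeat sites (34.8%, 29.8 to 40.1%), 113 of them of the CAGAGA group. Among the histone lists the same share was 4.84% of 124 simple-repeat peaks for H3K4me3 at stage 8 and 9.52% of 84 for H3K27ac at stage 9. The highest was 10.9% of 128 for H3K27ac at stage 10.5. The 24 simple-repeat sites of stage 8 are runs of a single base, which cannot hold these letters, so they give no comparison. The CCCTA and CAGGG units do not hold these letters, and the bases of the Chap4 copies were not read. These matches describe the repeat label at the centre of a peak and are not evidence of a bound motif.

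The 24 simple-repeat sites of stage 8 were all runs of a single base, 13 labelled (T)n and 11 (A)n. No stage 9 site had such a label (0 of 865, with an interval up to 0.426%). These 24 sites had a median width of 442.5 bp, against 243 bp over all stage 8 sites and 868 bp at the recurrent loci described below. The remaining stage 8 repeats were 9 DNA transposons of 8 kinds, 3 low-complexity stretches, 1 long terminal repeat (LTR1b_Xt) and 1 unclassified repeat (XLGST2), and 8 stage 8 sites had no annotation of any kind. The stage 8 list thus held 1 Chap4 site and no site with any of the 3 tandem units.

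**Figure D1:**
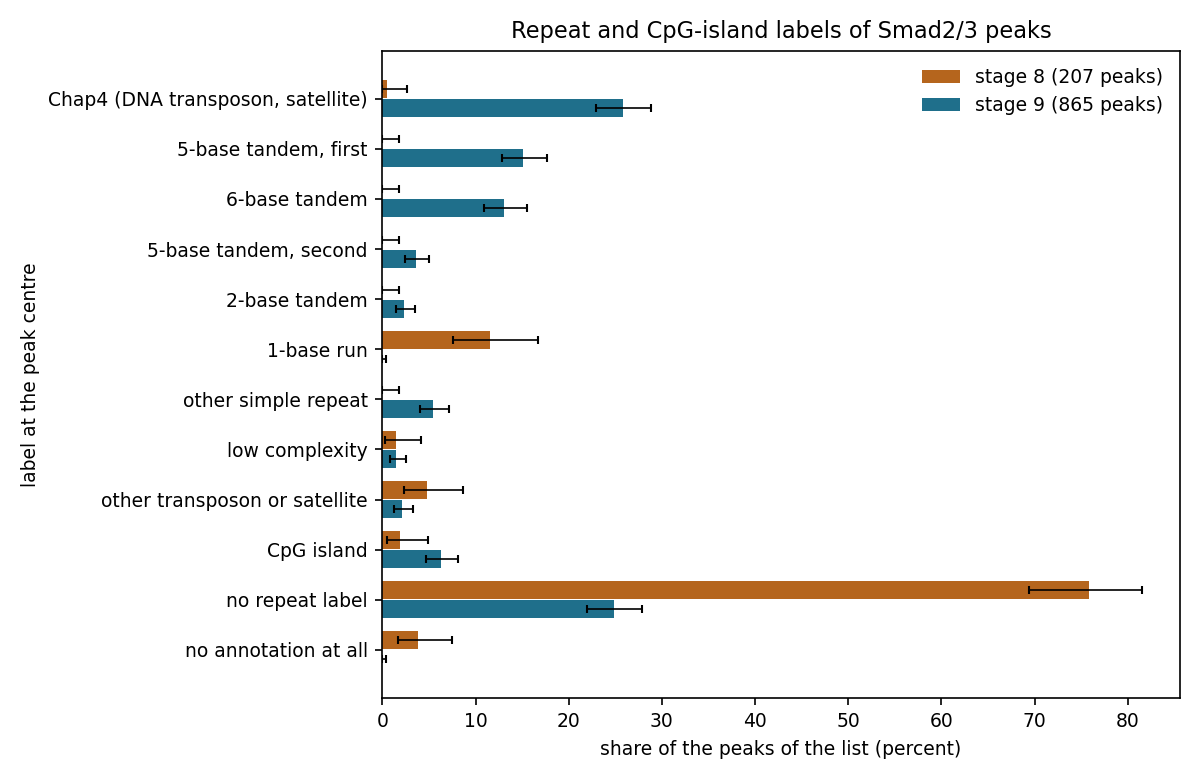
Share of the 207 stage 8 and 865 stage 9 Smad2/3 peaks (x axis, percent) with each kind of repeat or CpG-island label at the peak centre (y axis); bars are shares and whiskers 95% Clopper-Pearson intervals. The first 5-base tandem is the group of 131 sites, the second the group of 31 and the 6-base tandem the group of 113, all at 0 in stage 8, while the 1-base runs (24 sites) occur at stage 8 and not at stage 9.

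The leading repeats of either stage were rare in the Smad2/3 list of stage 10.5 and in the histone lists, and the single-base runs of stage 8 labelled 0 of the 1024 sites of stage 10.5 and at most 0.0681% of any histone list. Chap4 labelled 1 of 1024 Smad2/3 sites at stage 10.5 (0.0977%), and its highest share in a histone list of over 1000 peaks was 0.842%, or 68 of 8078 H3K27ac peaks at stage 8. The 4 leading groups together labelled 0.0977% of the stage 10.5 Smad2/3 sites and at most 0.904% of the peaks in histone lists of that size. The copies under Smad2/3 at stage 9 were largely outside those histone peaks: of the 223 Chap4 sites, 7 lay under an H3K27ac peak of stage 8, 2 under one of stage 9 and 4 under an H3K4me1 peak of stage 9. No source used here says how reads matching several copies of a repeat were placed.

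The base composition of the lists differed by more than their repeats. Median G+C was 34.6% (33.4 to 35.4%) over the stage 8 sites and 55.8% (55.3 to 56.4%) over the stage 9 sites, a difference of 21.3 percentage points. The middle 50% of stage 8 sites ran from 30.9 to 39.7% G+C and that of stage 9 sites from 51.6 to 59.1%, so these ranges did not meet. In the sites with neither a repeat nor a CpG-island label, 157 at stage 8 and 215 at stage 9, the difference was as large, with medians of 33.8% (32.7 to 35.0%) and 56.5% (54.6 to 58.4%). It was 20.0 points among repeat-labelled sites, 21.4 among intronic sites, 21.8 among intergenic sites and 22.3 among sites of 200 to 400 bp, and smallest, at 14.0 points, among the 4 and 54 CpG-island sites. Below 40% G+C lay 156 stage 8 sites (75.4%) and 5 stage 9 sites (0.578%), whereas 60% or more was reached by 1 stage 8 site and 182 stage 9 sites (21.0%). The Smad2/3 sites of stage 10.5 fell below 40% G+C in 47.7% of cases and reached 60% in 0.0977%.

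CpG dinucleotides, the usual target of DNA methylation in vertebrates, did not follow G+C. The median site held 0.83 CpG per 100 positions at stage 8 and 0.198 at stage 9, and 419 stage 9 sites (48.4%) contained none, against 22 stage 8 sites (10.6%). As a ratio of observed to expected CpG, which corrects for G+C, the medians were 0.294 and 0.0261. The CCCTA and CAGAGA groups had a median of 0, as their units hold no CpG, and Chap4 had 0.24 CpG per 100 positions. Sites of stage 9 without a repeat or CpG-island label had 0.93 per 100 positions and an observed to expected ratio of 0.128, against 0.82 and 0.276 in the same class at stage 8.

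**Figure D2:**
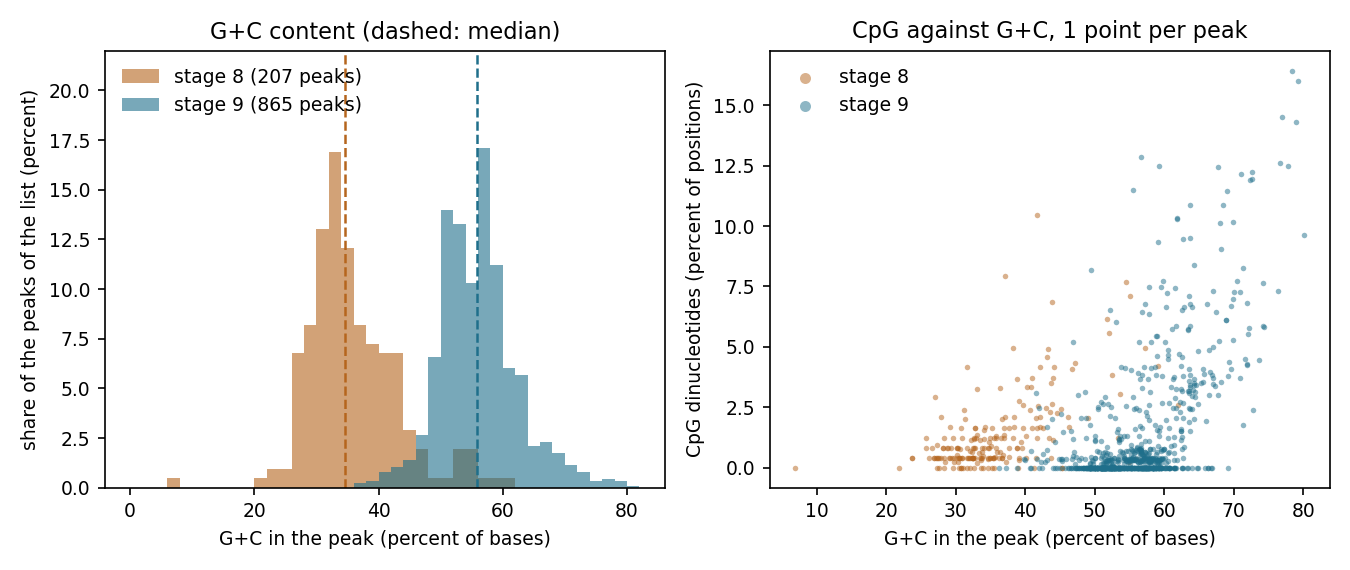
Left, G+C content of each peak (x axis, percent of bases, bins of 2 points) as a share of its list (y axis, percent), with dashed lines at the medians of 34.6% (stage 8, 207 peaks) and 55.8% (stage 9, 865 peaks). Right, CpG dinucleotides per 100 positions (y axis) against G+C (x axis), 1 point per peak: stage 9 points with 0 CpG (419 of 865) form a line along the bottom.

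Sites of stage 8 lay nearer to genes. Of 207 stage 8 sites, 134 (64.7%) lay within 50 kb of an annotated TSS, against 327 of 865 stage 9 sites (37.8%). No gene was annotated on the scaffold for 24 stage 8 sites and 247 stage 9 sites (28.6%). Over the sites with a TSS the median distance was 20382 bp (183 sites) at stage 8 and 43263 bp (618 sites) at stage 9. Stage 8 sites lay downstream of the nearest TSS in 123 cases and upstream in 60, and stage 9 sites in 345 and 273. Introns held 76 stage 8 sites (36.7%) and 125 stage 9 sites (14.5%), and transcription ends, exons and 3′ untranslated regions 11 and 4 sites. Of the 125 intronic stage 9 sites, 32 were Chap4 copies, 22 CCCTA and 21 CAGAGA repeats.

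Few sites were promoter-proximal. Within 1 kb of a TSS lay 3 stage 8 sites, next to LOC733811, haus6, a subunit of the augmin complex that nucleates spindle microtubules, and hmga2.1, a high-mobility-group chromatin protein. At stage 9 there were 14 such sites, next to m6pr, a mannose-6-phosphate receptor, pelo, a ribosome rescue factor, taz, phc2, a Polycomb group protein, aqp3, a water and glycerol channel, mrps16, ska3, saal1, fam91a1, klhl18, trpc4ap, slc35f5, LOC100145714 and rn18s. The rn18s site was centred at an annotated transcription end and had 77.0% G+C. Of these 14 stage 9 sites, 9 overlapped a peak of H3K4me1, H3K27ac or H3K4me3 of the same stage, and those at m6pr, taz, trpc4ap and LOC100145714 overlapped all 3. At stage 8 the site at LOC733811 overlapped all 3 marks and those at haus6 and hmga2.1 none.

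The regions of highest score were of another kind than the rest at stage 8. Scores are the authors' peak-caller values and are compared only within a list. The 10 stage 8 sites of highest score, from 41.5 to 376 against a median of 11.9, all lay at loci where an H3K27me3 peak is called at stages 8, 9 and 10.5, called recurrent loci here. They include the sites nearest mrps30, a mitochondrial ribosomal protein, stk3, a Hippo pathway kinase, and LOC100170490, and the other 7 lie on scaffolds with no annotated gene. In all, 16 stage 8 sites and 1 stage 9 site lay at such loci. Below them, the genes nearest the highest stage 8 scores were crk, an adaptor of tyrosine kinase signalling, ankrd46, mrto4, fgf1 at -140485 bp, slc16a3 and mep1b. The stage 9 list was led by sites nearest efnb3, an ephrin ligand, at 178081 bp, actr3, a subunit of the actin-nucleating Arp2/3 complex, at 10744 bp, ccdc6, per1, a circadian clock repressor, nisch and pak7. Of the 173 stage 9 sites of highest score 53.8% had a repeat label, against 75.1% of the 173 of lowest score, and CpG islands held 15.0% against 2.89%. Chap4 labelled 16.2% of the highest and 31.8% of the lowest. The higher scores also went with wider peaks, with a median of 398 bp against 288 bp, and over all sites the median width was 243 bp at stage 8 and 324 bp at stage 9.

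Histone marks were sparse at the sites of both stages. A peak of H3K4me1, H3K27ac or H3K4me3, marks of enhancers, active elements and promoters, of the same stage overlapped 28 of 207 stage 8 sites (13.5%) and 86 of 865 stage 9 sites (9.94%). Without the recurrent loci the order of the stages turned, with 12 of 191 (6.28%) and 85 of 864 (9.84%), as it did against the stage 9 sites of highest score, as many as there are stage 8 sites (17.9%). The mark lists are larger at stage 9, so the shares of the stages are not on 1 scale. H3K4me1 has 5874 peaks at stage 8 and 25975 at stage 9, H3K27ac 8078 and 11314, and H3K4me3 2010 and 6839. The Smad2/3 sites of stage 10.5 overlapped those marks of stage 9 in 81.3% of 1024 cases and those of stage 8 in 51.0%. Within the stage 9 list the leading repeats had few marks: 0 of 131 CCCTA sites, 0 of 31 CAGGG sites, 2 of 113 CAGAGA sites and 6 of 223 Chap4 sites overlapped one, against 36 of 215 sites without a repeat or CpG-island label (16.7%) and 13 of 54 CpG-island sites (24.1%). Other simple repeats had a mark at 12 of 47 sites, CA or TG repeats at 6 of 20, and low-complexity stretches at 4 of 13, so the scarcity was not shared by every repeat-labelled group.

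Most stage 8 sites overlapped sequence with called RNA. Called 3′ RNA regions, the intervals in which the authors' region caller found 3seq tags, overlapped 139 of the 207 stage 8 sites (67.1%, 60.3 to 73.5%), 5 of the 865 stage 9 sites (0.578%, 0.188 to 1.34%) and 24 of the 1024 sites of stage 10.5 (2.34%). The median distance from a site to the nearest RNA region was 0 bp at stage 8, 33345 bp at stage 9 and 16721 bp at stage 10.5. These medians leave out sites with no RNA region on their scaffold, which were 8, 230 and 29 at the 3 stages. Among peaks of at most 500 bp, the overlap was 66.7% of 195 stage 8 sites and 0.404% of 742 stage 9 sites. It ran from 2.07 to 12.2% in the 14 histone lists, which include those of Nodal-inhibited embryos. Stage 8 sites outside the recurrent loci gave 129 of 191 (67.5%). The share was 46 of 76 (60.5%) in introns, 67 of 94 (71.3%) in intergenic DNA and 20 of 24 (83.3%) at the (A)n and (T)n runs. Of the 41 stage 8 sites of highest score 34 lay on an RNA region, and of the 41 of lowest score 28. The 5 stage 9 sites on RNA regions were 3 CpG islands, 1 of them nearest slc41a2, and the sites at otud5 and LOC100145714, all above 60% G+C.

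**Figure D3:**
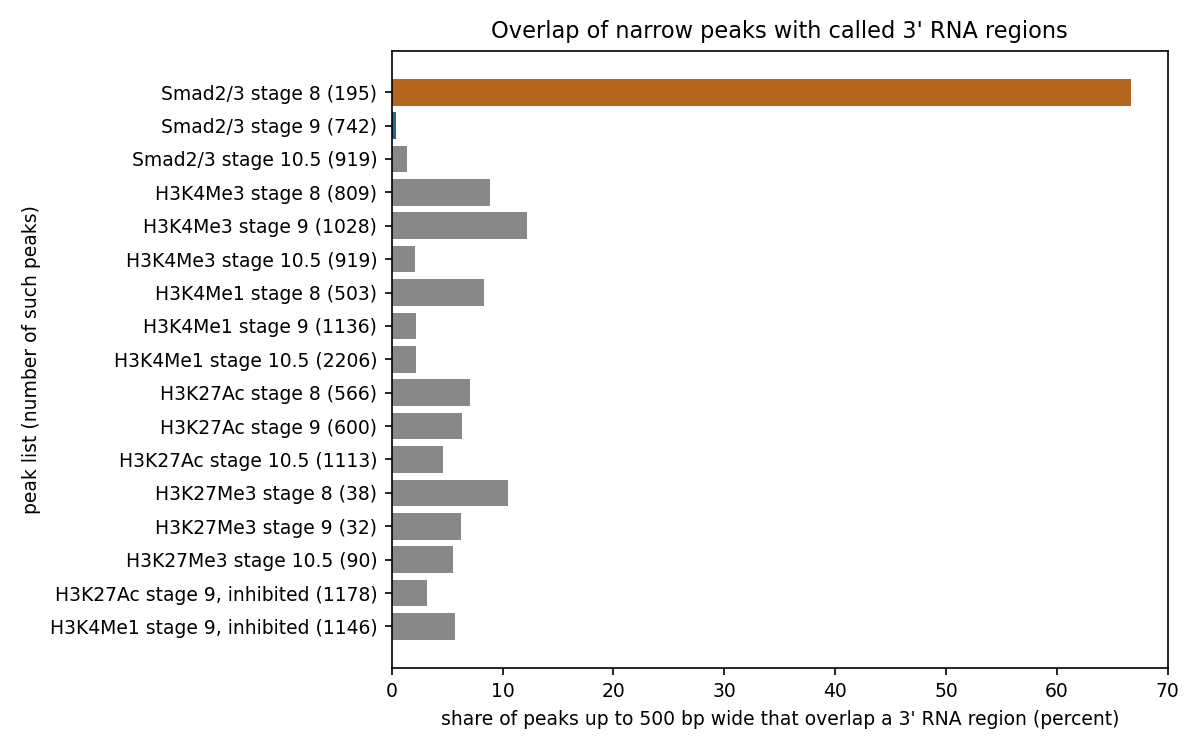
Share of peaks up to 500 bp wide that overlap a called 3′ RNA region by at least 1 bp (x axis, percent), for each of the 17 peak lists (y axis, with the number of such peaks). The Smad2/3 list of stage 8 stands at 66.7%, the list of stage 9 at 0.404%, and no other list is above 12.2%.

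The RNA regions under stage 8 sites were mostly at their highest in the stage 8 RNA library. Outside the recurrent loci 180 regions lay under a site, with medians of 118.5 tags at stage 8, 14 at stage 9, 34.5 at stage 10.5 and 16.5 in stage 9 embryos treated with the Nodal receptor inhibitor SB431542, against 35, 23, 36 and 21 over all 46039 regions. Scaled to all tags, 98 of the 123 such regions with at least 10 CPM, a tag count scaled by its library total, in the higher library were 2-fold or more lower at stage 9 (79.7%), against 37.3% of all regions compared, and 2 were as much higher (1.63%), against 14.0% of all. The stage 8 library held the highest of the 4 levels in 141 of the 180 (78.3%), against 36.6% of all regions. A length of 90 to 110 bp was found in 88 of the 180 (48.9%), against 18.9% of all. Of the 1001 regions of that length that were 4-fold or more higher at stage 8 than at stage 9, with at least 10 CPM, 66 (6.59%) lay under a stage 8 site, against 0.603% of the other 13270 regions of at least 10 CPM at stage 8. This set is defined by the length and the drop just described for regions under stage 8 sites. Its larger share under those sites restates these traits and is no separate support.

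Single regions show the size of the drop. The region under the site nearest mrpl16, a mitochondrial ribosomal protein gene, at bases 183728 to 183828 of scaffold 764, had 3209 tags at stage 8 and 118 at stage 9. The region under the intronic site of fam185a had 2009 and 131 tags, and that under the site of crk 1735 and 187. An intergenic region of 101 bp, nearest flrt3, a leucine-rich repeat membrane protein, at 26863 bp, had 1979 and 288 tags. The recurrent loci differed: their 28 regions had medians of 2023 tags at stage 8 and 1780 at stage 9, and the 2 regions of most tags in the stage 8 library, with 58123 and 54537 tags on scaffold 18215, lay under 1 such site. The region nearest gdap2 outside them had 17518 and 18453 tags.

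The RNA table gives positions in rising order for 22919 regions and in falling order for 23120, and no source used here states what the order means. Of the 139 stage 8 sites on RNA regions, 48 overlapped regions of both orders, and in 43 of these the falling ones lay at higher positions, with a median offset of 36.5 bp. The offset was not particular to stage 8. At stage 10.5, 11 of 24 sites on RNA regions overlapped both orders, all 11 with the falling ones higher, at a median offset of 33.75 bp. At stage 9 it was 2 of 5 sites, 1 of them with the falling ones higher. By the labels the ChIP libraries were made from chromatin and the RNA libraries from mRNA taken with oligo-dT beads. Whether the stage 8 ChIP and RNA libraries hold some of the same fragments was not tested.

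**Figure D4:**
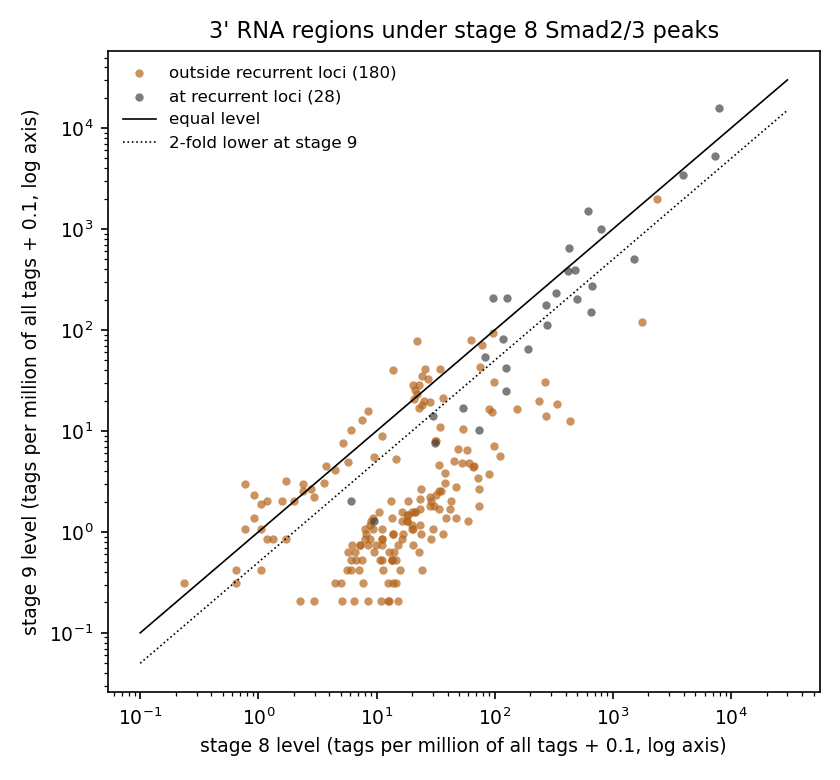
Level of each 3′ RNA region under a stage 8 Smad2/3 site at stage 8 (x axis) and stage 9 (y axis), in CPM of all tags plus 0.1 on log axes; 180 regions lie outside recurrent loci and 28 at them. Most regions outside recurrent loci fall below the dotted line of a 2-fold lower level at stage 9, while 12 of the 26 compared at recurrent loci do, with a median log2 of -0.62.

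Genes near the sites were compared by RNA with the tags of each gene summed and scaled to the named tags (CPM of named tags), as log2 of stage 9 over stage 8 with a pseudocount of 1 CPM, for genes of at least 10 CPM in either library. Of all 4560 genes compared, 7.35% were 2-fold or more higher and 29.0% 2-fold or more lower at stage 9, with a median of -0.45, and all values below are read against that shift. Within 50 kb of a stage 8 site lay 132 named genes, of which 82 were compared, and their median was -0.84 (-1.08 to -0.66), with 4 higher and 34 lower (41.5%). Within 50 kb of a stage 9 site lay 287, of which 140 were compared, with a median of -0.30 (-0.54 to -0.15), 5 higher and 34 lower (24.3%). For genes near Chap4 sites the median of 50 was -0.67 (-1.01 to -0.29), and for those near CAGAGA sites that of 10 was 0.13 (-0.41 to 0.36). With TMM scaling the median of all genes was 0.00, 15.5% of genes were higher and 16.3% lower, and the genes near stage 8 sites gave 5 higher and 22 lower of 82 and those near stage 9 sites 17 higher and 14 lower of 140, with medians of -0.38 and 0.15.

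Part of the lower level near stage 8 sites rested on the tags of the regions under the sites themselves. Without all tags under Smad2/3 sites of either stage, which took tags from 34 genes near stage 8 sites, 75 genes were compared. Their median was -0.70 (-0.91 to -0.47), against -0.45 for all genes. Of the 75, 4 were higher (5.33%) and 26 lower (34.7%, 24.0 to 46.5%), against 7.34% and 28.9% of all genes. The interval of the lower share includes the share of all genes. Of the 34 genes that were lower, 24 still were, 4 were not, 1 (heatr3) fell under the minimum and 5 had no other tags. For mrpl16 the level went from 803 to 129 CPM with all tags and from 159 to 112 CPM without, a log2 of -2.63 and -0.50. For fam185a the log2 was -3.51 with all tags and -1.63 without, and for crk -2.09 and -1.52. In the genes near stage 8 sites that overlapped no RNA region, 24 were compared, with a median of -0.63 (-0.98 to -0.15). This interval includes the -0.45 of all genes. Of the 24, 3 were higher (12.5%) and 6 lower (25%), against 7.35% and 29.0% of all genes.

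Among the other genes that were lower near stage 8 sites, cdc40, a splicing factor, had 594 tags at stage 8 and 140 at stage 9, or 119 and 21.0 CPM, and without the tags under its site the log2 was -2.05 in place of -2.45. haus6 had no tags under its promoter site and went from 247 to 59.2 CPM, 4.17-fold lower (3.72 to 4.69). All 92 and 2 tags of pla2g6, a phospholipase, 348 and 25 of znf329, 850 and 80 of kcnj16 and 68 and 12 of kcnj13, both potassium channels, and 60 and 8 of LOC100144290 lay under their sites, so these 5 labels measure those regions alone.

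The 4 genes that were higher near stage 8 sites had no tags under a site. cdc23, a subunit of the anaphase-promoting complex, had 113 tags at stage 8 and 2400 at stage 9, or 22.7 and 360 CPM, a fold of 15.9 (13.1 to 19.3). slc35a1, a nucleotide-sugar transporter, had 54 and 396 tags, mrpl43 1820 and 8685 tags, and nudt22 423 and 1289. Near stage 9 sites the higher genes were dirc2, with 69 and 621 tags and 3 sites on 3 scaffolds, fam91a1 with 109 and 607, c5orf43 with 940 and 4859, tbl2 with 1670 and 5668 and m6pr with 120 and 338. The lowest ratios near stage 9 sites were those of fam70a, with 2150 and 238 tags, imp3, with 123 and 9, and letm1, a mitochondrial ion exchanger, with 261 and 32, each beside a Chap4 site. fam70a went from 432 to 35.7 CPM, 12.1-fold lower (10.6 to 13.9), with its site 2769 bp from the TSS. Lower as well were atp6ap2, an accessory subunit of the proton-pumping V-ATPase, from 292 to 50 tags beside another simple repeat, slc16a1, a monocarboxylate transporter, from 82 to 21 beside a CAGGG repeat, and tp53bp2, a p53-binding protein, from 394 to 163 beside a CCCTA repeat. For atp6ap2, 209 and 16 of these tags lay under a stage 8 site nearest another gene, and 83 and 34 remained without them. Of the genes compared, 18 of 50 near Chap4 sites were lower (36%, 22.9 to 50.8%). Near CCCTA sites 5 of 26 were lower (19.2%, 6.55 to 39.4%), and near CAGAGA sites 0 of 10 (0 to 30.8%). Each of these intervals includes the 29.0% of all genes.

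**Figure D5:**
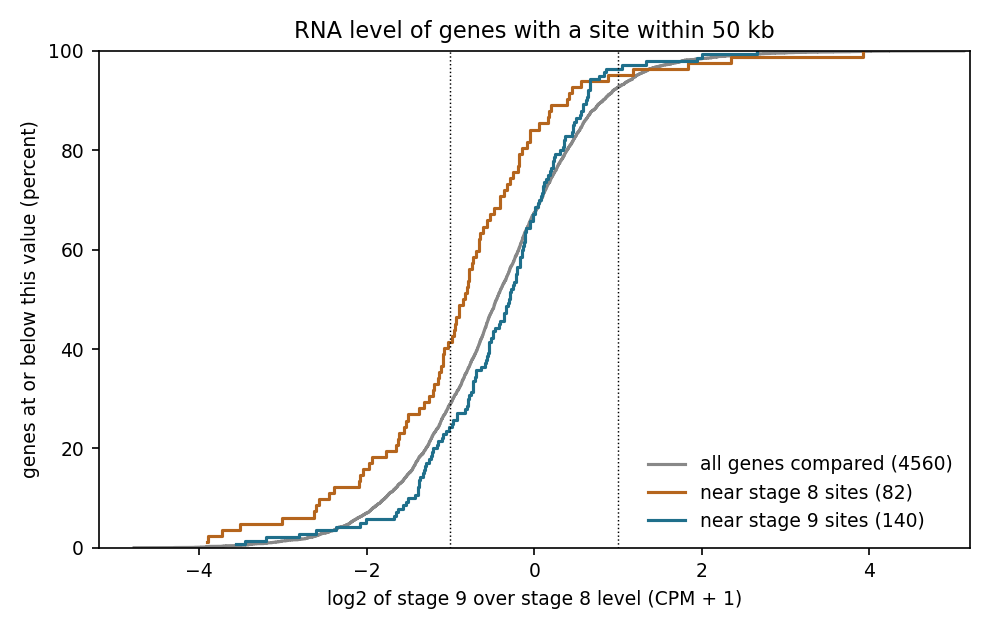
Cumulative share of genes (y axis, percent) at or below each log2 ratio of stage 9 over stage 8 level (x axis, CPM + 1), for all 4560 genes compared, the 82 near stage 8 sites and the 140 near stage 9 sites; dotted lines mark 2-fold. At the left dotted line, 2-fold lower at stage 9, the stage 8 curve stands at 41.5%, all genes at 29.0% and the stage 9 curve at 24.3%.

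Abundant genes stood near sites of both stages. By tags at stage 8, the most abundant near stage 8 sites were rpl8, a ribosomal protein, at 8554 and 15048 tags, ctsl2 (a cathepsin) at 7730 and 19066, crk and mrpl16. Without the tags under sites crk (2293) and mrpl16 (786) fell below eif4enif1 (3550), a translational repressor that binds eIF4E, and cdk8 (3159), a kinase of the Mediator complex. Near stage 9 sites the most abundant were ucp2, a mitochondrial carrier, at 18376 and 27605 tags, stmn1, a microtubule regulator, at 7300 and 6283, cdkn2d, an inhibitor of cyclin-dependent kinases, at 6805 and 8285, and rps3 at 6357 and 8222. None of these 4 stage 9 genes changed by 2-fold, with log2 ratios from -0.64 to 0.17.

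The genes near sites of the 2 stages overlapped at the background share. Of the 132 genes within 50 kb of a stage 8 site 4 (3.03%) also lay near a stage 9 site, against 287 of all 8164 genes named in any peak list (3.52%), and these were 1.39% of the 287. They were acp5, a phosphatase, arhgef12, dis3l2, an RNA exonuclease, and prkci, an atypical protein kinase C. Of these acp5 went from 260 to 136 tags, arhgef12 from 371 to 76 and dis3l2 from 256 to 190, and prkci has no label in the RNA table. At arhgef12 the sites lay at 19881 and 19034 bp from the TSS, and without the tags under sites the gene was still lower, from 143 to 49 tags, a log2 of -1.84. More than 1 site within 50 kb was found for 2 stage 8 genes, brf1 and prkag2, and for 31 stage 9 genes, of which 4 had them on several scaffolds: sox18 with 4 sites on 4 scaffolds, dirc2, sox6 and tbxas1. epb41l5 had 4 sites within 30494 bp, and cdh4, smarcal1 and wnt7b had 3 each on 1 scaffold. The sites at sox18 were CCCTA and CAGAGA repeats, and those at wnt7b were all CCCTA repeats.

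Genes of the Nodal pathway and of germ layer patterning lay near the sites of stages 8 and 9 in numbers close to the background. The lists of Nodal ligands and feedback, endoderm, mesoderm and organizer had 57 members in the files. Of these, 0 lay within 50 kb of a stage 8 site, against 1.62% of all 8164 named genes. Near a stage 9 site lay 3 (5.26%), against 3.52%. Near a Smad2/3 site of stage 10.5 lay 37 of the 57. The share of all named genes near those sites was not computed, but it has an upper limit. As 624 of those sites lay within 50 kb of a TSS and each names 1 gene, at most 624 of the 8164 genes lie near them. The 3 near stage 9 sites were foxa2, an endoderm and organizer transcription factor, lhx1 and not, both organizer transcription factors. The foxa2 site, a Chap4 copy at -8654 bp on scaffold 242, overlapped an H3K27ac peak of stage 9, and the lhx1 site, a 2-base repeat at -4636 bp, overlapped an H3K4me1 peak. The not site was a CAGAGA repeat at -36481 bp with none of these marks, and not had 143 and 239 tags, a log2 of 0.31. lhx1 had 0 tags and 1 tag, and foxa2 has no label in the RNA table. Over all 13 lists, 183 members were found, of which 2 (cpeb1 and h2afz) lay near stage 8 sites (1.09%) and 6 near stage 9 sites (3.28%). These are near the shares of all named genes. Near stage 10.5 sites lay 78 of the 183, again with only that upper limit for all named genes to set beside them. The other 3 near stage 9 sites were gapdh, tubb2b and actr3. cpeb1, a translational regulator of maternal mRNA, had 2044 and 1189 tags, and h2afz, a histone variant gene, 2725 and 5361.

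Some scaffolds held several stage 9 sites, and these numbers were not set against scaffold length. Scaffolds 178 and 255 held 9 sites each, of which 5 on each were CAGAGA repeats, and scaffolds 531 and 724 held 8 each, of CCCTA and CAGAGA repeats and sites without a label. The 9 sites lay between bases 43991 and 1425688 of scaffold 178, and between 149129 and 1448575 of scaffold 255. Another site of the list lay within 10 kb of 79 stage 9 sites (9.13%) and of 9 stage 8 sites (4.35%), all 9 at recurrent loci. In the stage 10.5 list this held for 368 of 1024 sites (35.9%). At the start of a scaffold, within its first 1 kb, lay 58 stage 9 sites (6.71%) and 7 stage 8 sites (3.38%).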

How the data were processed

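The deposited peak lists and the RNA table were used as they are. Per the submitters' processing notes the Smad2/3 reads were aligned with Bowtie, peaks called with MACS2 and annotated with HOMER, and per the file headers the build is xenTro2, with G+C and CpG deposited as a fraction of 0 to 1. HOMER names what lies at the peak centre. The deposited score of a peak has no stated scale and was used only within a list. Peak names of both lists carry the word stricter, and the stage 9 names the word pooled. Thresholds may differ between the stages, and the depth of the ChIP libraries is unknown here. The RNA table holds tag counts deposited by the authors for 46039 called regions, of which 20406 name no gene (32.6% and 29.1% of the tags at stages 8 and 9). The stage 8 library had 7383222 tags, 4973283 of them named, and the stage 9 library 9390029 and 6659554. A further 4 sample columns, which fit none of the samples given here, were set aside. The deposited region order (rising or falling) was reduced to start and end. Genome sequence of this build was not used here.

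Shares, medians, overlaps of at least 1 bp and CPM ratios were computed with Python 3.11.15, pandas 2.3.3 and SciPy 1.17.1, and TMM factors with edgeR 4.0.16 on the deposited counts. Functions were tested on simulated data. Genes were named by rule: those nearest the top scores, within 1 kb of a site, with several sites, near sites of both stages, most abundant, most changed, or in the gene lists. Members, lists and rules were chosen with earlier results of these data known. Alternatives for the RNA regions, and all use of their overlap with peaks, were chosen after seeing the data. A fold has a conditional binomial interval of counting error.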

Additional observations from a re-analysis of the deposited data

How the results depend on the processing

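No paired analysis was possible because each stage has 1 library, and for the same reason no replicate could be left out. Of 147 recomputed values of 26 results, 98 stayed within the interval of the reported value or within 1.5 times its count and 49 moved; beyond what each alternative changes by construction, the cause was not tested. The order of the stages was kept in 28 of 30 alternatives of 7 shares compared between them; the shares with a mark reversed without recurrent loci (6.28 against 9.84%) and with the shorter stage 9 list (13.5 against 17.9%). Near stage 9 sites the median log2, -0.30 as reported, was 0.15 under TMM and 0.16 under the median-of-ratios factors, above that of all genes each time. The interval of the reported median (-0.54 to -0.15) included the -0.45 of all genes. With the shorter stage 9 list the median of 42 genes was -0.45, no higher than that of all genes at 2 decimals. The G+C difference stayed between 20.9 and 22.7 points in every alternative run for it, and the share of stage 8 sites on RNA regions between 61.8 and 71.5%.

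The stage 9 list was reduced to its highest scores, as many as there are stage 8 sites. Repeats then fell to 57.0%, simple repeats to 34.3% and Chap4 to 17.9%. CpG islands were 14.0%, marks 17.9%, RNA-region overlap 1.93% and the width difference 148 bp. Of the 42 genes compared, 12 were lower (28.6%) and 3 higher (7.14%), against 29.0% and 7.35% of all genes. With only sites that have an annotated TSS on the scaffold, stage 9 gave introns 20.2% (the same with only annotated classes), repeats 73.9%, CpG islands 4.21%, Chap4 29.1%, sites within 50 kb 52.9% and marks 7.93%, and stage 8 gave CpG islands 0%, sites within 50 kb 73.2% and marks 8.20%. With only peaks of 200 to 400 bp, repeats were 8.38% and simple repeats 1.80% at stage 8, and repeats 72.4%, CpG islands 4.70% and Chap4 31.4% at stage 9. Without recurrent loci, stage 8 CpG islands were 0.524% and marks 6.28%.

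Within 10 kb of a TSS lay 25.1% of stage 8 and 10.98% of stage 9 sites, and within 100 kb 76.3% and 49.7%. Allowing 1 kb gave 4 shared sites, 13.5% of stage 9 sites with a mark and 3.24% with an RNA region, and RNA regions of 50 or more tags gave 0.116%. For genes within 10 kb, the stage 8 median minus that of all genes was -0.64 in place of -0.39. Of 35 such genes compared, 19 were lower (54.3%) and 2 higher (5.71%), with a median of -1.09. Without the tags under sites, 29 of these genes were compared, with a median of -0.85. Then 13 were lower (44.8%, 26.4 to 64.3%), and this interval includes the 28.9% of all genes without such tags. Near stage 9 sites 13 of 49 within 10 kb were lower (26.5%). At any distance from stage 9 sites, 63 of 245 were lower (25.7%) and 13 higher (5.31%). Of all genes, 29.0% were lower and 7.35% higher in CPM of named tags. TMM and median-of-ratios scaling both gave 22 of 82 genes lower near stage 8 sites (26.8%). Near stage 9 sites both gave 14 lower (10%) and 17 higher (12.1%) of 140. The background shifts with the scaling, and under TMM 16.3% of all genes were lower and 15.5% higher. Against that TMM background the lower share was above it near stage 8 sites, and both shares were below it near stage 9 sites. With only stage 8 sites off RNA regions, added after seeing the data, introns were 44.1% and the median difference -0.18. Of the 24 genes then compared, 6 were lower (25%) and 3 higher (12.5%), against 29.0% and 7.35% of all genes in CPM of named tags.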
